A study of Oryza sativa Indica Group with 6 samples.

Results

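A set of 51 rice loci was at or near 0 in young panicles of the wild type and clearly transcribed in young panicles of the ssh1 mutant. They were chosen by their own measured levels, out of 55982 loci listed once per sample: each had an FPKM below 0.5 in all 3 wild-type replicates and above 5 in all 3 ssh1 replicates. FPKM is the number of sequenced fragments scaled by transcript length and by the size of the library, so levels can be set side by side between loci. Because the choice used the contrast between the genotypes, the levels and fold changes of the 51 loci are given as a description and without a test.

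The mutant, ssh1 (labelled SSH1-/-), is a nonshattering line recovered after EMS mutagenesis of YIL100 and carries a point mutation in an intron of SNB. The wild type is YIL100 itself, an introgression line with segments of the wild rice Oryza rufipogon (accession YJCWR) in the indica variety Teqing, so both genotypes share this background. RNA-seq was done on developing panicles of 0 to 4 cm, with 3 replicates per genotype that each pooled 5 plants. The mutant is 1 line, so an effect of the SNB mutation and of any other change carried by that line cannot be told apart. In whole panicles, more or fewer cells of a type and more or less RNA per cell cannot be told apart either.

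SNB (SUPERNUMERARY BRACT) encodes a transcription factor of the APETALA2-like group, which in rice acts in the change from spikelet meristem to floral meristem. In rice, seeds fall from the plant at the abscission zone, a thin layer of small cells between the seed and its pedicel. The rice genes qSH1, SH4, SH5 and SHAT1 are known for their part in building it. A locus that is silent in a tissue can be so because its regulators are absent there, because its chromatin is closed, or because its transcripts are removed, and FPKM values alone do not separate these.

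SNB (LOC_Os07g13170) had 7.97, 7.44 and 8.86 FPKM in the ssh1 replicates, against 20.9, 16.9 and 18.0 FPKM in the wild-type replicates. It fell by 1.11 on the log2(FPKM + 1) scale (SE 0.11, adjusted p = 0.00072, limma with Benjamini-Hochberg adjustment). OsMADS15, a floral MADS-box gene, averaged 228 ± 30.3 FPKM in ssh1 and 244 ± 9.73 FPKM in the wild type (SD, n = 3 each), as a check of the labelled tissue. Replicates were compared over the 18537 loci with a mean of at least 1 FPKM. Their log2(FPKM + 1) values correlated at 0.95 to 0.96 in ssh1 and at 0.98 in the wild type. The files give no read totals, but the spacing of low values showed how many fragments 1 FPKM stands for in each library. On the log2 scale and relative to wild-type replicate 1, this was -0.24, -0.09 and 0.06 in ssh1 replicates 1, 2 and 3 and -0.17 and -0.15 in wild-type replicates 2 and 3. Over the 18537 loci with a mean of at least 1 FPKM, the median log2 difference was -0.14.

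The 51 loci are known here by their locus numbers alone. None of the locus IDs matched the reference gene table, and none is named with a function in the sources used here, so no role is given. Their promoter and protein sequences were not analysed here. The first 2 digits of each number give the chromosome, and the digits after the letter g give the order along it.

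Summed over the 51 loci, the ssh1 replicates had 3184, 1617 and 1343 FPKM, against 4.77, 5.48 and 7.06 FPKM in the wild-type replicates. These sums made up 0.337%, 0.194% and 0.140% of all FPKM in the ssh1 replicates, and less than 0.0008% in each wild-type replicate. The median locus had 31.6, 18.6 and 14.4 FPKM in the ssh1 replicates and 0.0548, 0.0902 and 0.118 FPKM in the wild-type replicates. The sum was highest in ssh1 replicate 1, where LOC_Os12g36240 alone had 593 FPKM, and the wild-type replicates were alike in carrying almost none.

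**Figure D1:**
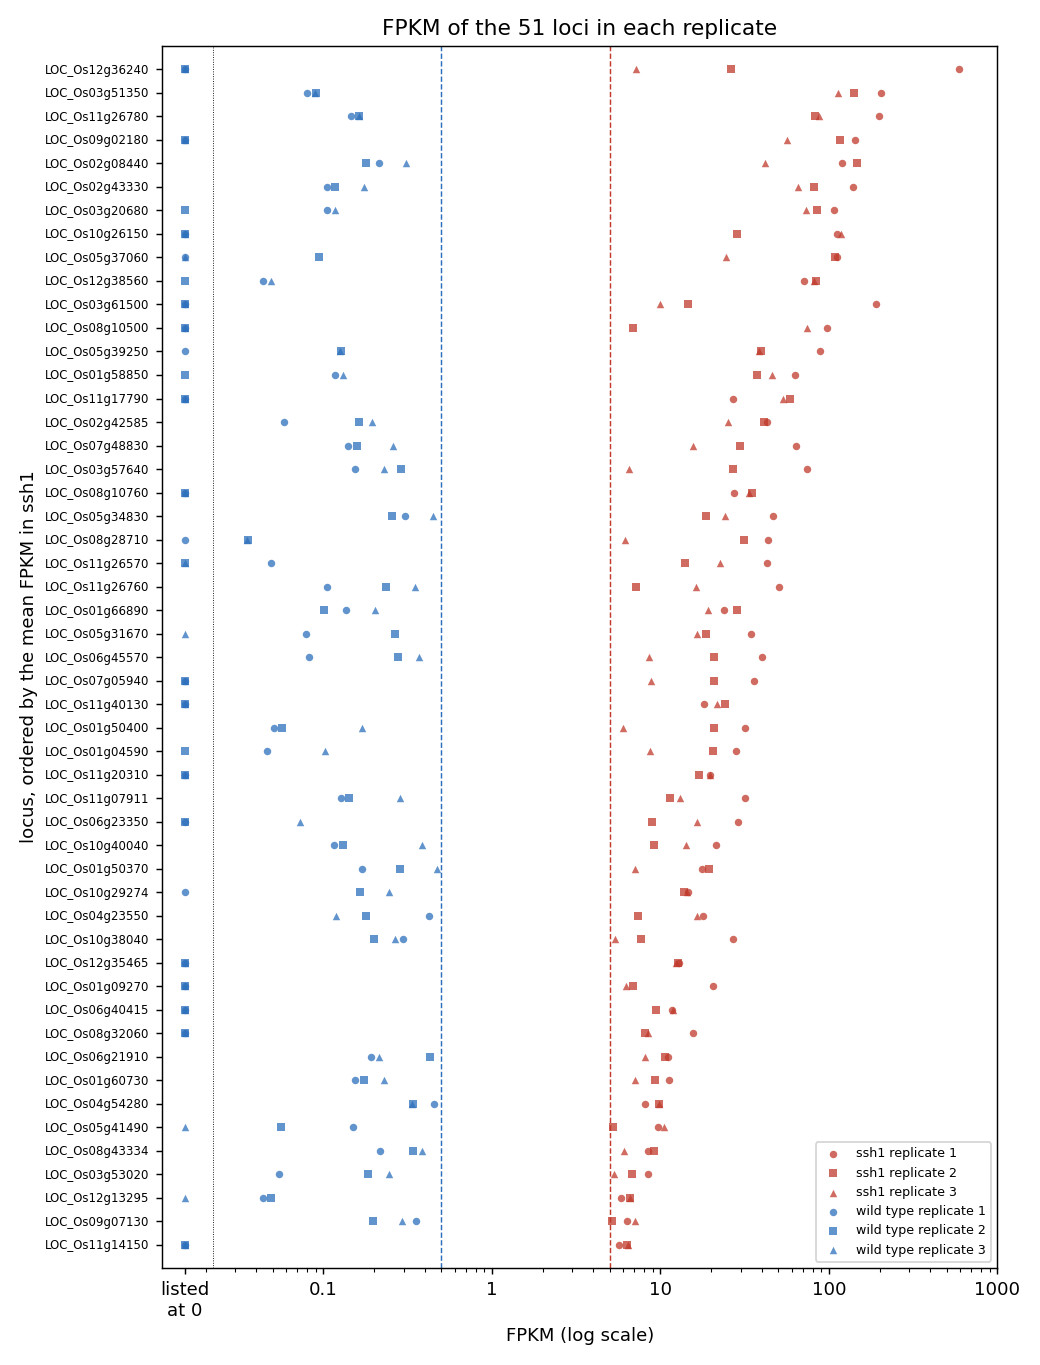
FPKM (log scale) of each of the 51 loci in the 3 ssh1 replicates (red) and the 3 wild-type replicates (blue), ordered by the ssh1 mean, with loci listed at 0 drawn at the left edge and the limits of 5 and 0.5 FPKM as dashed lines. The ssh1 means run between 6.14 and 208.7 FPKM, and the red points of the loci at the top lie farther apart than those of many loci near the bottom. The limit of 5 FPKM in every ssh1 replicate leaves loci with low means little room to spread, so nothing is read from this.

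Mean ssh1 levels lay between 6.14 and 208.7 FPKM, with a median of 23.1. There were 5 loci at 100 FPKM or more, 8 between 50 and 100, 15 between 20 and 50, 14 between 10 and 20, and 9 below 10.

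The highest mean belonged to LOC_Os12g36240, which had 593, 26.1 and 7.21 FPKM in the ssh1 replicates and was listed at 0 in every wild-type replicate. That mean was made almost wholly by ssh1 replicate 1. LOC_Os03g51350 was high in every mutant library, with 205, 141 and 113 FPKM in ssh1 against 0.0804, 0.0902 and 0.0896 FPKM in the wild type, and it had the largest log2 difference of the set (7.10, SE 0.21). LOC_Os11g26780 had 199, 82.6 and 87.0 FPKM in ssh1 against 0.145, 0.163 and 0.162 FPKM in the wild type. LOC_Os09g02180 had 143, 117 and 56.5 FPKM in ssh1 and was listed at 0 in all wild-type replicates. In these last 3 loci the lowest ssh1 replicate was still far above any wild-type replicate, and ssh1 replicate 1 was the highest of the 3. LOC_Os02g08440 differed in that replicate 2 was highest, with 120, 147 and 41.5 FPKM in ssh1 against 0.213, 0.179 and 0.310 FPKM in the wild type.

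Among the 8 loci with ssh1 means of 50 to 100 FPKM, the replicates were close in some and far apart in others. LOC_Os12g38560 had 71.1, 84.3 and 81.8 FPKM in ssh1 against 0.0437, 0 and 0.0486 FPKM in the wild type, and LOC_Os03g20680 had 107, 84.8 and 73.4 FPKM in ssh1 against 0.106, 0 and 0.118 FPKM in the wild type. LOC_Os02g43330 had 138, 82.0 and 65.8 FPKM in ssh1 against 0.105, 0.117 and 0.174 FPKM in the wild type. The highest ssh1 replicate was 1.19 and 1.46 times the lowest at the first pair and 2.10 times at LOC_Os02g43330. LOC_Os05g37060 had 112, 108 and 24.5 FPKM in ssh1 against 0, 0.0940 and 0 FPKM in the wild type, so that replicate 3 was low. LOC_Os10g26150 had 112, 28.3 and 119 FPKM in ssh1 and was listed at 0 in the wild type, so that replicate 2 was low. Replicate 2 was also low in LOC_Os08g10500, with 97.8, 6.86 and 74.0 FPKM in ssh1 and wild-type replicates listed at 0. In LOC_Os03g61500, with 191, 14.7 and 9.93 FPKM in ssh1 and wild-type replicates listed at 0, replicate 1 stood alone, as it did less sharply in LOC_Os05g39250 (88.9, 39.6 and 38.5 FPKM in ssh1 against 0, 0.127 and 0.126 FPKM in the wild type).

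The 15 loci with ssh1 means of 20 to 50 FPKM were LOC_Os01g58850, LOC_Os11g17790, LOC_Os02g42585, LOC_Os07g48830, LOC_Os03g57640, LOC_Os08g10760, LOC_Os05g34830, LOC_Os08g28710, LOC_Os11g26570, LOC_Os11g26760, LOC_Os01g66890, LOC_Os05g31670, LOC_Os06g45570, LOC_Os07g05940 and LOC_Os11g40130. Their ssh1 replicates lay between 6.14 and 73.7 FPKM, and no wild-type replicate was above 0.446 FPKM. Of these, 4 are described after their values were seen. LOC_Os11g17790 went against the usual order, with its lowest level in replicate 1 (27.1, 58.4 and 53.0 FPKM in ssh1, listed at 0 in the wild type). LOC_Os08g10760 and LOC_Os11g40130 also had their lowest level there, at 27.3, 34.7 and 33.6 FPKM and at 18.1, 24.1 and 21.8 FPKM in ssh1, and both were listed at 0 in the wild type. The other extreme was LOC_Os03g57640, with 73.7, 27.1 and 6.51 FPKM in ssh1 against 0.154, 0.287 and 0.228 FPKM in the wild type.

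The 14 loci with ssh1 means of 10 to 20 FPKM were LOC_Os01g50400, LOC_Os01g04590, LOC_Os11g20310, LOC_Os11g07911, LOC_Os06g23350, LOC_Os10g40040, LOC_Os01g50370, LOC_Os10g29274, LOC_Os04g23550, LOC_Os10g38040, LOC_Os12g35465, LOC_Os01g09270, LOC_Os06g40415 and LOC_Os08g32060. LOC_Os11g20310, picked after its values were seen, was even across the mutant, with 19.7, 16.9 and 19.6 FPKM in ssh1, and was listed at 0 in the wild type. The 9 loci with the lowest ssh1 means were LOC_Os06g21910, LOC_Os01g60730, LOC_Os04g54280, LOC_Os05g41490, LOC_Os08g43334, LOC_Os03g53020, LOC_Os12g13295, LOC_Os09g07130 and LOC_Os11g14150. Their ssh1 replicates lay between 5.14 and 11.3 FPKM, and 1 of them, LOC_Os11g14150, was listed at 0 in every wild-type replicate (5.70, 6.33 and 6.39 FPKM in ssh1).

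In the wild type, 15 of the 51 loci were listed at 0 in all 3 replicates, 3 in 2 replicates and 10 in 1 replicate, and 23 had a value above 0 in each. No fold is given for loci listed at 0. For the 23 loci with a value in every wild-type replicate, the ssh1 mean was between 22.0 and 1765 times the wild-type mean, with a median of 94.9. Wild-type values this small can rest on very few fragments, so these ratios carry a counting error that the files do not give. On the log2(FPKM + 1) scale, which understates the change of loci with low values, the difference of the 51 loci lay between 2.48 and 7.10, with a median of 4.31.

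Over all 18537 loci tested with limma, 3.19% were higher in ssh1 and 1.92% lower, counting those changed at least 2-fold whose Benjamini-Hochberg adjusted p was below 0.001. Of the 51 loci, 41 were past both thresholds and 10 were not, and nothing is read from these counts because the same contrast chose the loci. The 10 were LOC_Os01g09270, LOC_Os01g50400, LOC_Os03g57640, LOC_Os03g61500, LOC_Os06g45570, LOC_Os08g10500, LOC_Os08g28710, LOC_Os10g38040, LOC_Os11g26760 and LOC_Os12g36240. They were not the loci with the smallest change, since their log2 differences began at 3.21, against 2.48 among the 41. Their SD of log2(FPKM + 1) over the ssh1 replicates had a median of 1.37 (0.87 to 3.19), and that of the 41 a median of 0.49 with a maximum of 1.23. The limma p rests on this same spread, so nothing is read from the contrast. The count was 13, 17 and 16 without wild-type replicate 1, 2 and 3, where the share of all loci called higher was also smaller, at 0.307%, 0.659% and 0.389%.

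Near the limits, the values formed no gap. The loci closest to the wild-type limit from inside were LOC_Os01g50370, LOC_Os04g54280 and LOC_Os05g34830, whose highest wild-type values were 0.471, 0.452 and 0.446 FPKM. Just outside lay LOC_Os03g26870, LOC_Os01g50700 and LOC_Os09g28210, with highest wild-type values of 0.523, 0.550 and 0.559 FPKM and lowest ssh1 values of 7.24, 5.69 and 14.1 FPKM. At the other limit, the lowest ssh1 values were 5.14, 5.22 and 5.29 FPKM for LOC_Os09g07130, LOC_Os05g41490 and LOC_Os03g53020. LOC_Os03g60560, LOC_Os01g42190 and LOC_Os11g32890 missed it with lowest ssh1 values of 4.98, 4.78 and 4.71 FPKM. Of these, LOC_Os03g60560 had 31.0, 4.98 and 8.61 FPKM in ssh1 against 0.0845, 0 and 0 FPKM in the wild type, so it was left out by replicate 2 alone.

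The ssh1 replicates differed more at most of the 51 loci than at most other loci above 5 FPKM in every ssh1 replicate. The SD of log2(FPKM + 1) over the 3 ssh1 replicates had a median of 0.59 at the 51 loci, with quartiles of 0.27 and 0.96. At the 11883 other loci above 5 FPKM in every ssh1 replicate, the median was 0.14. Without ssh1 replicate 1 the medians were 0.28 at the 51 loci and 0.13 at the other loci. An SD above 1 was found at 11 of the 51 loci (21.6%) and at 96 of the other loci (0.808%). The highest ssh1 replicate was at least 2 times the lowest at 30 of the 51 loci (58.8%) and at 5.80% of the other loci. These are descriptions, with no test, because the choice of the loci used the same ssh1 values.

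A wide spread was shared by other loci with large differences. Of the loci above 5 FPKM in every ssh1 replicate, 270 others had a log2 difference of at least 2.48, the lowest among the 51. Their median SD was 0.47, 24 of them (8.89%) had an SD above 1, and 120 (44.4%) had a highest replicate at least 2 times the lowest. The median ratio of the highest to the lowest ssh1 replicate was 2.31 at the 51 loci, 1.90 at these 270 loci.

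**Figure D2:**
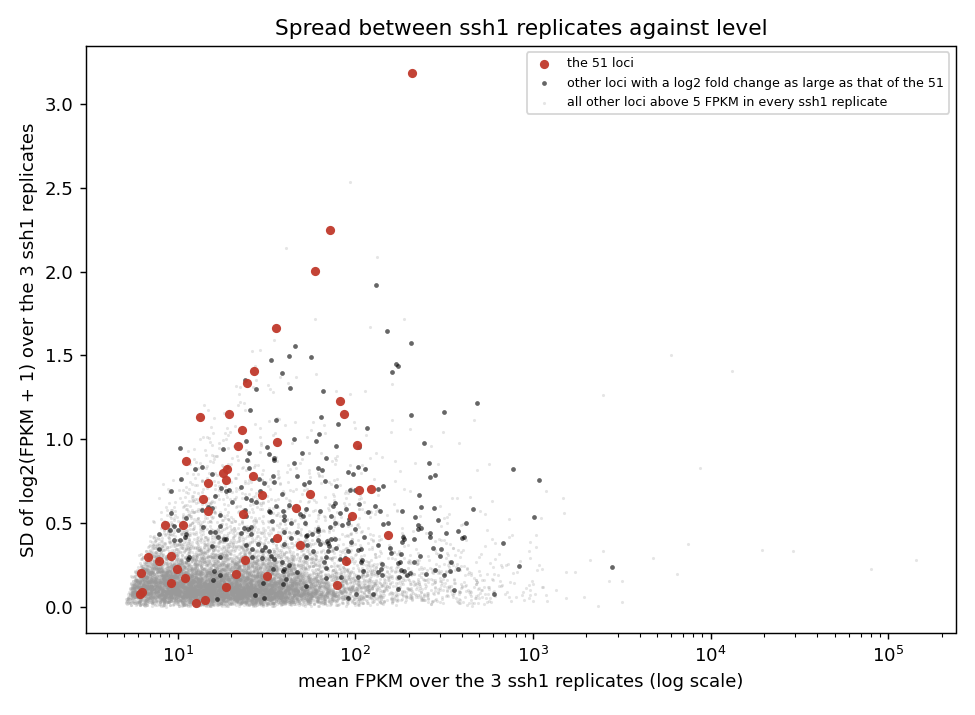
SD of log2(FPKM + 1) over the 3 ssh1 replicates against the mean ssh1 FPKM (log scale), for the 51 loci (red), the 270 other loci with a log2 difference of at least 2.48 (black) and all other loci above 5 FPKM in every ssh1 replicate (grey). The red points span 0.024 to 3.19 with a median of 0.59, and the grey cloud has a median of 0.14.

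At the wide end stood LOC_Os12g36240, LOC_Os03g61500 and LOC_Os08g10500, with highest ssh1 replicates 82.2, 19.2 and 14.3 times the lowest, and LOC_Os12g36240 had the largest SD of the set (3.19). All 3 were listed at 0 in every wild-type replicate. At the narrow end stood LOC_Os12g35465, LOC_Os10g29274 and LOC_Os11g14150. LOC_Os12g35465 had 12.9, 12.7 and 12.4 FPKM in ssh1 and was listed at 0 in the wild type, a ratio of 1.04 between its highest and lowest ssh1 replicate. LOC_Os10g29274 had 14.6, 13.8 and 14.4 FPKM in ssh1 against 0, 0.166 and 0.246 FPKM in the wild type. Loci with no signal at all in the wild type were thus found at both ends of the spread.

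Of the 51 loci, 10 had an SD below 0.2, and 6 of these were listed at 0 in every wild-type replicate. An SD below 0.2 was also found at 8297 of the 11883 other loci above 5 FPKM in every ssh1 replicate. Among the 270 other loci with large differences it was found at 23. Chromosomes 11 and 12 held 12 of the 51 loci, and 6 of the 12 had an SD below 0.2 (LOC_Os11g14150, LOC_Os11g20310, LOC_Os11g40130, LOC_Os12g13295, LOC_Os12g35465 and LOC_Os12g38560). On the other chromosomes it was 4 of 39 (LOC_Os04g54280, LOC_Os06g40415, LOC_Os08g10760 and LOC_Os10g29274). At the other loci above 5 FPKM, the median SD was 0.13 on chromosomes 11 and 12 and 0.14 on the rest. This grouping by chromosome was made after the values were seen and was not tested. The share of other loci with an SD below 0.2 on these chromosomes is not given here, so nothing is read from the grouping.

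Most of the 51 loci peaked in the same library. The highest ssh1 value fell in replicate 1 at 36 loci (70.6%), in replicate 2 at 9 and in replicate 3 at 6, while the lowest fell in these replicates at 7, 17 and 27 loci. Relative to the mean of its ssh1 replicates, the median locus was at 0.42, -0.14 and -0.37 on the log2 scale in replicates 1, 2 and 3. The 270 other loci with large differences had the same order, with 172 (63.7%) highest in replicate 1 and medians of 0.26, -0.03 and -0.38. At the 11883 other loci above 5 FPKM it was replicate 3 that was most often highest, at 39.3%, against 31.5% for replicate 1. ssh1 replicate 1 was also the library in which 1 FPKM stood for the fewest fragments, and the part of this in the spread was not tested.

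**Figure D3:**
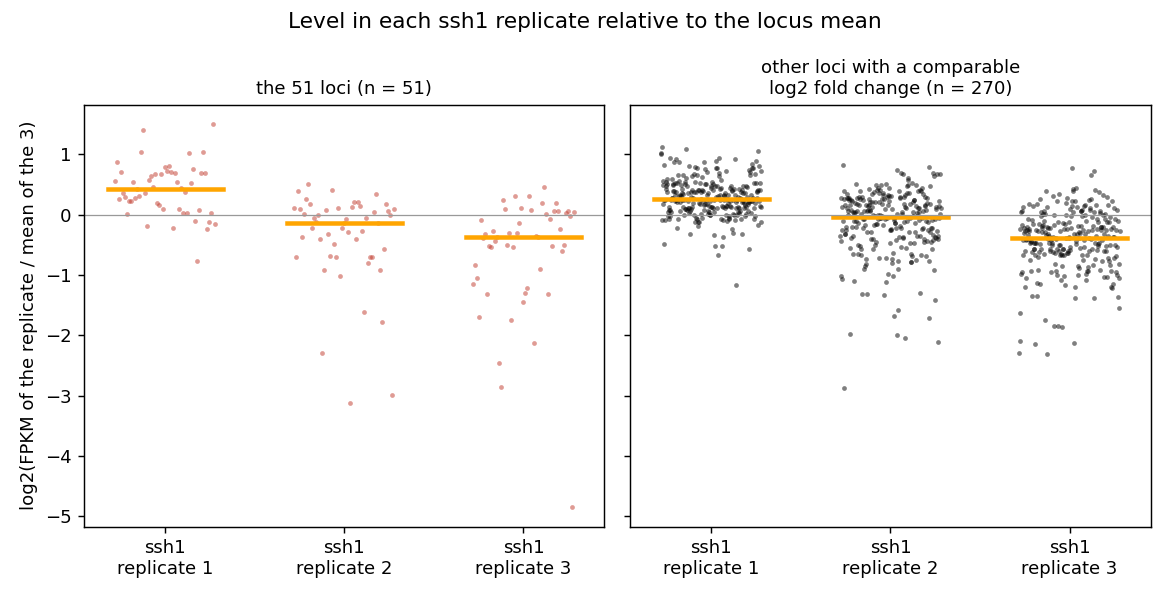
Level of each locus in each ssh1 replicate relative to its mean over the 3, as log2 of the ratio, for the 51 loci (left) and the 270 other loci with a log2 difference of at least 2.48 (right); orange bars are medians. In both panels the medians stand highest in replicate 1 and lowest in replicate 3, at 0.42 and -0.37 for the 51 loci and at 0.26 and -0.38 for the 270.

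Asking for a high value in every ssh1 replicate removed many loci that were high in some. Among the 35133 loci below 0.5 FPKM in every wild-type replicate, 164 were above 5 FPKM in ssh1 replicate 1, 102 in replicate 2 and 72 in replicate 3. In all, 186 loci were above 5 FPKM in at least 1 of them. Of these, 68 were so in replicate 1 alone, 9 in replicate 2 alone and 8 in replicate 3 alone, and 37 were so in replicates 1 and 2 but not 3. Without ssh1 replicate 3, the set would hold 88 loci. The opposite pattern, below 0.5 FPKM in every ssh1 replicate, was met by 23, 16 and 19 loci above 5 FPKM in wild-type replicates 1, 2 and 3, and by 5 loci above it in all of them.

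The 51 loci lay on all 12 chromosomes. Chromosome 11 held 8 and chromosome 1 held 7, and chromosomes 4, 7 and 9 held 2 each. Per 1000 listed loci, this was 1.92 on chromosome 11, 1.07 on chromosome 1, 0.376 on chromosome 4 and 0.914 over all chromosomes. No locus of the set lay near SNB on chromosome 7: the nearest was 674 listed loci away. Among the other genes of shattering and floral development that the study lists (SH4, qSH1, SH5, SHAT1, SH-H and OsMADS15), the nearest approach was 103 listed loci, at SH5.

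Loci of the opposite pattern lay on 3 chromosomes. They were LOC_Os01g10940, LOC_Os11g32940, LOC_Os11g39990, LOC_Os12g18230 and LOC_Os12g34900. LOC_Os11g40130, one of the 51, lay 12 places from LOC_Os11g39990, which had 0, 0 and 0.0383 FPKM in ssh1 against 11.6, 16.2 and 14.7 FPKM in the wild type. LOC_Os12g35465 lay 55 places from LOC_Os12g34900, which had 0.282, 0.358 and 0.279 FPKM in ssh1 against 16.0, 12.9 and 13.9 FPKM in the wild type. Locus numbers give order along the chromosome but no distance in bases.

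**Figure D4:**
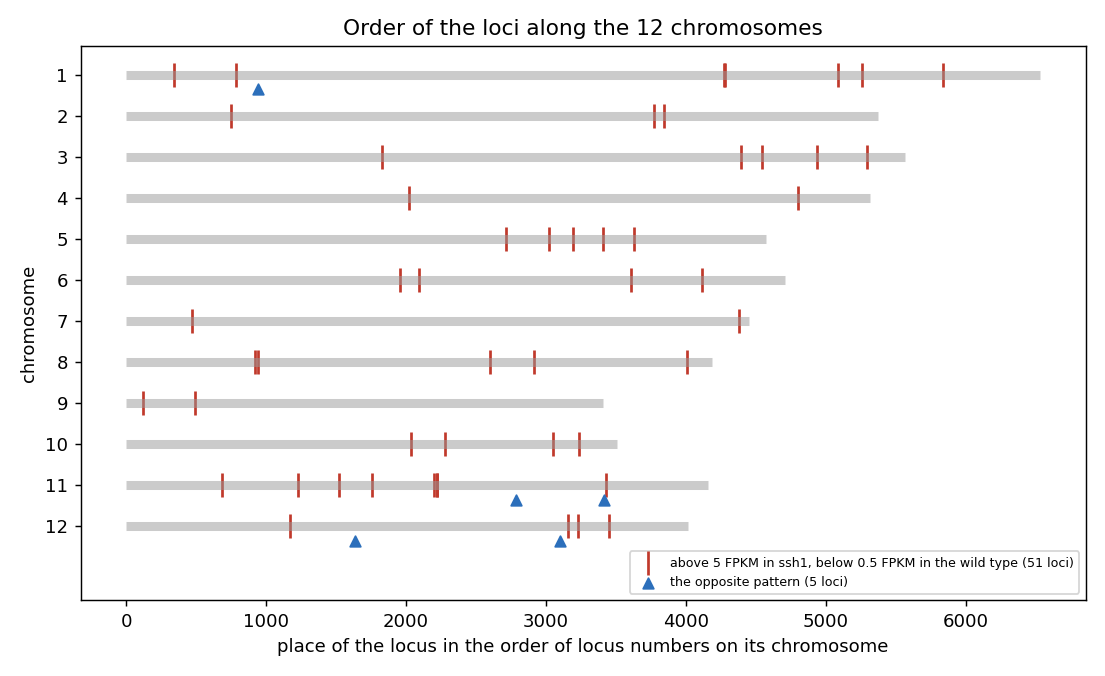
Place of the 51 loci (red bars) and of the 5 loci with the opposite pattern (blue triangles) in the order of locus numbers along each of the 12 chromosomes; grey bars span all listed loci of the chromosome. The 8 loci of chromosome 11 include a pair 2 places apart, and 4 of the 5 triangles lie on chromosomes 11 and 12.

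Within the set, 2 pairs lay close together, each 2 places apart. LOC_Os01g50370 had 17.7, 19.4 and 7.09 FPKM in ssh1 against 0.169, 0.285 and 0.471 FPKM in the wild type. LOC_Os01g50400 had 31.6, 20.7 and 5.98 FPKM in ssh1 against 0.0508, 0.0571 and 0.170 FPKM in the wild type. Both members of this pair were lowest in ssh1 replicate 3. The other pair was LOC_Os11g26760, with 50.5, 7.17 and 16.2 FPKM in ssh1 against 0.105, 0.236 and 0.351 FPKM in the wild type, and LOC_Os11g26780, whose values are given above. Both were highest in ssh1 replicate 1 and lowest in replicate 2. The locus between them, LOC_Os11g26770, was near 0 in both genotypes.

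The loci beside the 51 were not chosen by their own values and could be tested. Taking the 2 listed loci on each side gave 198 neighbours outside the set, of which 76 were at 0 in all 6 samples and 85 were tested. In the limma fit, 8 of the 85 (9.41%) were higher in ssh1 past both thresholds and 2 (2.35%) were lower, beside 3.19% and 1.92% of all loci tested. Around the 548 other loci called higher that had a place on a chromosome, 45 of 1022 tested neighbours (4.40%) were higher. Some of the 45 were themselves among the 548, whereas the 51 loci were left out of the 198 neighbours. The 2 shares were thus not counted alike. With 1 listed locus on each side of the 51, 7 of 42 (16.7%) were higher, and with 5 on each side 14 of 198 (7.07%). Around the 548 loci these were 25 of 529 (4.73%) and 93 of 2300 (4.04%). The shares were not tested against each other. The median log2 difference of the 85 neighbours was 0.01, and 44 of them were above 0, beside a median of -0.14 over all loci tested. At the 1022 tested neighbours of the 548 loci the median was -0.03, and 484 were above 0. The share of all loci above 0 is not given here. The count of 8 was 4 with a pseudocount of 0.1, where 3.36% of all loci were higher. It was 0 with wild-type replicate 1, 2 or 3 left out, where 0.307%, 0.659% and 0.389% of all loci were higher past both thresholds. At an unadjusted p below 0.05 in limma, 17, 17 and 18 neighbours were then higher. The share of all loci at that looser cutoff is not given here, so nothing is read from these 3 counts. Past both thresholds, the count was 1 without ssh1 replicate 1 (1.30% of all loci) and 3 without ssh1 replicate 3 (2.79%). The count of lower neighbours was 0 with any wild-type replicate or ssh1 replicate 1 left out, where 0.0485% to 0.483% of all loci were lower, and 1 without ssh1 replicate 2 (1.47%).

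The largest change next to the set was at LOC_Os11g26790, directly after LOC_Os11g26780. It had 379.8, 76.8 and 159.8 FPKM in ssh1 against 0.178, 1.87 and 0.264 FPKM in the wild type (log2 difference 6.70, SE 0.63, limma adjusted p = 0.00064). Only a wild-type replicate above 0.5 FPKM kept it out of the set, so 3 of 4 consecutive listed loci were high in ssh1. Like its neighbours it was highest in ssh1 replicate 1 and lowest in replicate 2.

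Behind LOC_Os04g54280, which had 8.06, 9.75 and 9.76 FPKM in ssh1 against 0.452, 0.339 and 0.335 FPKM in the wild type, stood loci with far higher levels. LOC_Os04g54310 had 163, 225 and 313 FPKM in ssh1 against 7.29, 1.14 and 5.54 FPKM in the wild type (log2 difference 5.54, SE 0.53, limma adjusted p = 0.00070). LOC_Os04g54300, between them and named after its values were seen, had 669, 150.6 and 631 FPKM in ssh1 against 12.9, 8.20 and 8.17 FPKM in the wild type, and its limma adjusted p of 0.0012 missed the threshold. Whether fragments were shared between these adjacent loci was not tested.

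The remaining neighbours named by rule had lower levels. LOC_Os05g37050, beside LOC_Os05g37060, had 20.6, 23.0 and 8.76 FPKM in ssh1 against 0.735, 0 and 0 FPKM in the wild type (log2 difference 3.84, SE 0.40, limma adjusted p = 0.00092), and both loci were lowest in ssh1 replicate 3. LOC_Os09g07140, beside LOC_Os09g07130, had 11.2, 7.38 and 6.53 FPKM in ssh1 against 1.16, 0.925 and 0.554 FPKM in the wild type (log2 difference 2.30, SE 0.22, limma adjusted p = 0.00070). In LOC_Os12g38550, beside LOC_Os12g38560, the ssh1 replicates had 3.52, 2.74 and 3.88 FPKM and the wild type was listed at 0 (log2 difference 2.12, SE 0.15, limma adjusted p = 0.00029). LOC_Os11g14160, beside LOC_Os11g14150, had 2.56, 3.42 and 2.92 FPKM in ssh1 against 0, 0 and 0.148 FPKM in the wild type (log2 difference 1.92, SE 0.15, limma adjusted p = 0.00040). Each of the neighbours just named was highest in another ssh1 replicate than its partner.

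A few further neighbours are named after their values were seen. LOC_Os07g48820 and LOC_Os03g57660 were also higher past the thresholds, with log2 differences of 1.91 and 1.68, beside LOC_Os07g48830 and LOC_Os03g57640. Both were expressed in the wild type as well, at means of 12.7 and 7.33 FPKM, against ssh1 means of 51.2 and 25.7 FPKM. The 2 lower neighbours were LOC_Os12g13290 and LOC_Os10g38020, which fell by 1.47 and 1.41 on the log2 scale beside LOC_Os12g13295 and LOC_Os10g38040. LOC_Os12g13290 averaged 6.40 FPKM in ssh1 and 19.4 FPKM in the wild type, so here a locus present in the wild type was lower next to one of the 51.

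Some neighbours missed the threshold but had the replicate pattern of their partner, while others had a different pattern. LOC_Os03g61490, beside LOC_Os03g61500, had 35.8, 6.64 and 4.21 FPKM in ssh1 against 0, 0.106 and 0 FPKM in the wild type (limma adjusted p = 0.0095). LOC_Os12g36220, beside LOC_Os12g36240, had 23.1, 2.85 and 0.369 FPKM in ssh1 and was listed at 0 in the wild type (limma adjusted p = 0.097). In both pairs, ssh1 replicate 1 stood far above the other two. LOC_Os01g50410 and LOC_Os01g50420, after LOC_Os01g50400, averaged 29.1 ± 12.2 and 7.43 ± 2.81 FPKM in ssh1, against 1.59 ± 1.17 and 0.368 ± 0.417 FPKM in the wild type (SD, n = 3 each). Their limma adjusted p-values were 0.0015 and 0.0020, and both were lowest in ssh1 replicate 3, like LOC_Os01g50400. LOC_Os08g10480, near LOC_Os08g10500, was highest in ssh1 replicate 2, where its partner was lowest. It had 67.6, 124 and 93.0 FPKM in ssh1 against 32.8, 45.7 and 60.7 FPKM in the wild type (limma adjusted p = 0.031). In all, 19 tested neighbours of 15 of the 51 loci had a log2 difference of at least 1 and an ssh1 mean of at least 1 FPKM. The share of all loci at that cutoff is not given here. Of the 19, 9 were highest in the same ssh1 replicate as their partner and the rest were not. Of the 51 loci, 36 were highest in replicate 1 and 27 lowest in replicate 3. Of the 270 other loci with large differences, 63.7% and 67.4% were. Nothing is therefore read from the count of 9 or from the shared patterns.

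**Figure D5:**
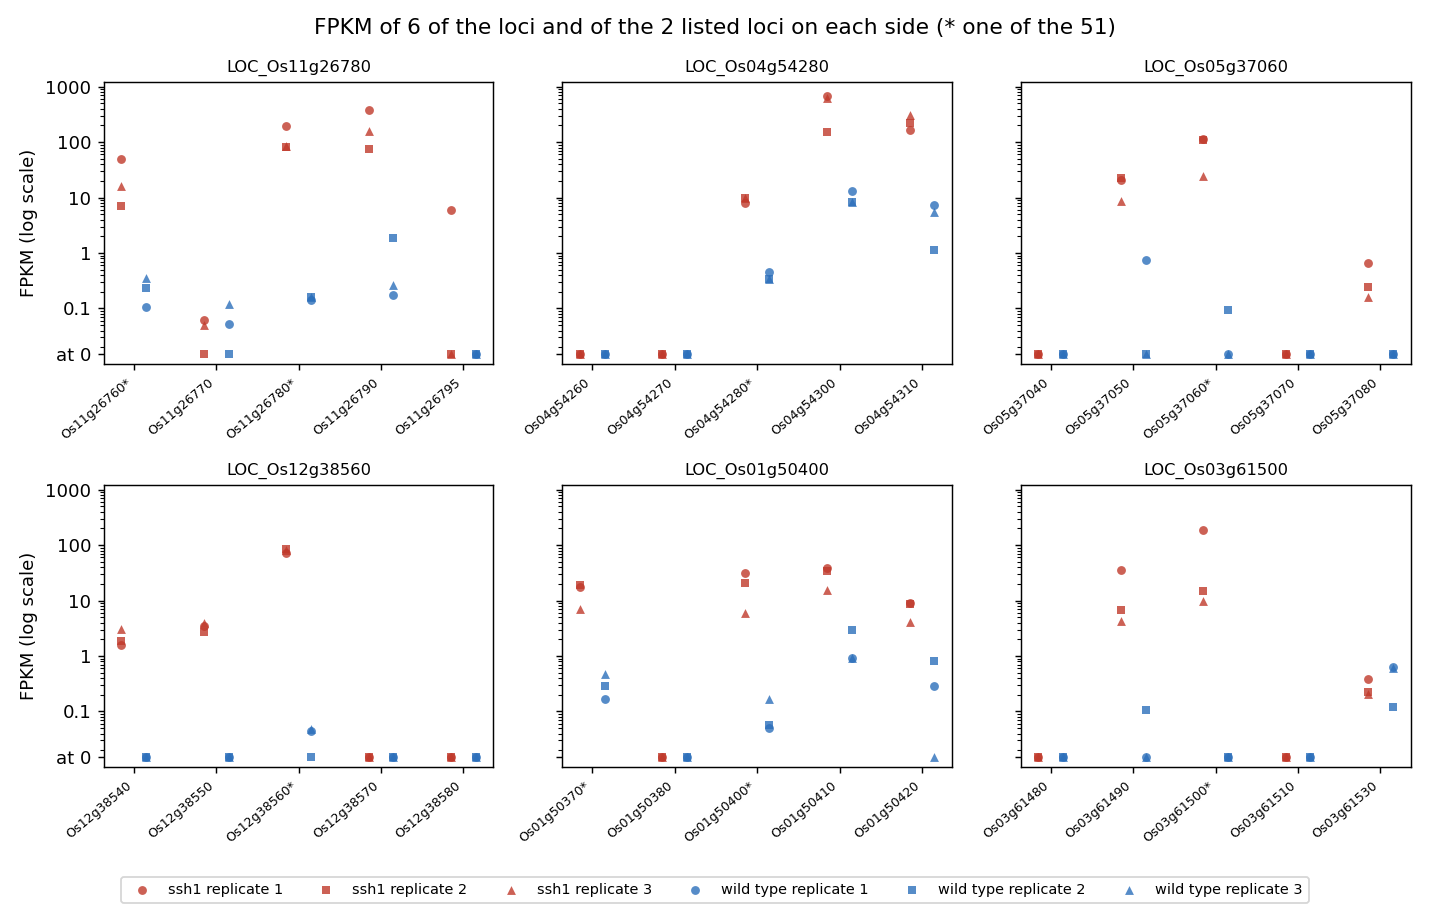
FPKM (log scale, with values listed at 0 on the lowest line) of 6 of the 51 loci and the 2 listed loci on each side, in the 3 ssh1 replicates (red) and the 3 wild-type replicates (blue); an asterisk marks loci of the set. Beside LOC_Os11g26780 and LOC_Os04g54280 the neighbours reach 379.8 and 669 FPKM in ssh1, while beside LOC_Os05g37060 and LOC_Os03g61500 the loci on the far side stay below 1 FPKM.

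Other loci of the set stood alone. LOC_Os06g21910 and LOC_Os11g20310 had 4 neighbours each that were listed at 0 in every sample. LOC_Os06g21910 had 11.1, 10.7 and 8.09 FPKM in ssh1 against 0.191, 0.429 and 0.214 FPKM in the wild type. At 8 of the 51 loci the neighbours all averaged below 1 FPKM in both genotypes. At 33 of them at least 1 neighbour averaged 5 FPKM or more in the wild type. The shares of all loci with such neighbours are not given here, so nothing is read from these counts.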

How the data were processed

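RNA-seq was done on 6 samples, 3 ssh1 and 3 wild type, grouped by the sample labels. The authors mapped paired-end reads with TopHat2 to the Nipponbare reference (IRGSP-1.0 per the submitters' processing notes, with the MSU7 annotation) and ran Cuffdiff. The deposited unit is FPKM, with a value for every locus in each replicate. FPKM is not a count, and read totals are not given in the sources used here, so no interval is given and the precision of low values is unknown. Neighbouring or near-identical loci could share fragments.

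The 4 locus IDs that occur repeatedly within a file were dropped. log2(FPKM + 1) was fitted with limma 3.58.1 in R 4.3.3 (genotype only, empirical Bayes with a mean-variance trend, Benjamini-Hochberg adjustment) over the 18537 loci with a mean of at least 1 FPKM. Calls were made at 2-fold or more with adjusted p under 0.001, the authors' thresholds for their own test. The fit was tested on simulated data. Nothing says that the pools came from separate sowings, so p-values measure the spread between these pools. With 3 against 3, an exact permutation test could not go below p = 0.1, and none was run.

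Named were the 10 loci with the highest ssh1 means, loci of the set within 5 places of each other, the 3 with the largest and the 3 with the smallest SD, the 3 on either side of each limit, the 6 called neighbours with the largest change, and SNB. LOC_Os05g39250, LOC_Os11g17790, LOC_Os08g10760, LOC_Os11g40130, LOC_Os03g57640, LOC_Os11g20310 and LOC_Os06g21910 were described in addition, chosen after their values were seen. The members and lists were chosen with earlier results of these data known. Alternatives changed the limits, pseudocount, filter, scaling, thresholds, neighbour range, a replicate block and the replicates used. Marker genes looked up by symbol and promoter motifs were not used, because the reference gene table matched 0 of the locus IDs. Figures were drawn with matplotlib 3.10.9.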

Additional observations from a re-analysis of the deposited data

How the results depend on the processing

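The size of the set followed its limits: 22 loci with a wild-type limit of 0.1 FPKM, 88 with 1 FPKM, 121 with an ssh1 limit of 2 FPKM, 24 with 10 FPKM and 152 with limits on the group means. Rescaled values gave 53 or 54 loci, all 51 among them, and leaving out 1 replicate gave 55 to 88. The count of the 51 loci past the thresholds lay between 29 and 51 under other pseudocounts, filters, scalings and thresholds. The share of all loci called higher lay between 1.12% and 7.07% in these settings. With 1 replicate left out, the count lay between 13 and 37 and the share between 0.307% and 2.79%, against 3.19% with all replicates.

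The 8 higher neighbours became 4 with a pseudocount of 0.1, 4 with no filter on low values (1.12% of all loci), 14 at an adjusted p below 0.01 (5.87% of all loci), 18 below 0.05 (7.07%), 14 with 5 places on each side, and 0 to 6 with 1 replicate left out. The 2 lower neighbours became 1 with no filter, 1 with 1 place on each side, 4 with 5 places, and 0 to 2 with 1 replicate left out.

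Replicate numbers did not pair the samples: the deviations of same-numbered samples correlated at -0.10, -0.07 and -0.17, and 0 of 3 ssh1 replicates correlated best with their own number. With the replicate block, limma called 0% of all loci, and so 0 of the 51 loci, 0 higher neighbours and 0 lower neighbours. At an unadjusted p below 0.05 and a 2-fold change these were 51, 19 and 3. The share of all loci at that cutoff is not given here, so nothing is read from these counts. In a setting added after the data were seen, the block with a threshold of 0.05, 17 neighbours were higher, beside 6.77% of all loci.

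The median SD of the 51 loci was 0.28 without ssh1 replicate 1 (0.13 at the other loci) and up to 0.58 without another, also chosen after seeing the data. Of the 207 log2 differences recomputed for named loci of the set, 183 moved by less than the replicate spread and 24 by more, and 0 reversed. The rule set every ssh1 replicate of these loci above every wild-type replicate, so leaving out a replicate could not reverse a sign. The replicate block could not move a difference, nor could leaving out a wild-type replicate at loci listed at 0 in all of them. Nothing is therefore read from these counts for the set. Of 63 log2 differences recomputed for the 6 named neighbours and SNB, 51 no longer passed the threshold and 0 reversed. Few fragments limit every ratio to a wild-type value.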

Other observations

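Of the 51 loci, 7 (13.7%) had a locus number that does not end in 0, against 6.88% of the other loci above 5 FPKM in every ssh1 replicate and 6.32% of all loci. They were LOC_Os02g42585, LOC_Os06g40415, LOC_Os08g43334, LOC_Os10g29274, LOC_Os11g07911, LOC_Os12g13295 and LOC_Os12g35465, and 4 of them had an SD below 0.2 on the log2(FPKM + 1) scale over the ssh1 replicates. Of the 5 loci with the opposite pattern, LOC_Os12g18230 had the highest wild-type level, at 0 in every ssh1 replicate against 21.8, 23.6 and 20.01 FPKM in the wild-type replicates.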
